A study of Solanum lycopersicum with 9 samples.

Results

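H3K9ac, an acetylation of histone H3, was compared between wild-type (WT) and *ddm1* leaves of tomato (*Solanum lycopersicum*, cultivar M82) through 1 peak list per genotype. All peaks of both lists that lay on the 12 numbered chromosomes were taken, which gave 119135 peaks (42622 in WT and 76513 in *ddm1*) of the 266074 peaks of the 9 lists of the series on these chromosomes. The study followed histone marks and chromatin folding in plants without DDM1. The *ddm1* plants carried mutations in both tomato copies of the gene, *Slddm1a* and *Slddm1b*, and WT was M82. Both genotypes were grown on soil in a growth chamber, and the fourth leaf was taken at an age of 1 month for chromatin immunoprecipitation and sequencing (ChIP-seq). A whole leaf holds many cell types, so a peak that is higher in each cell and a peak that is present in more of the cells cannot be told apart.

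H3K9ac is deposited by histone acetyltransferases on the first nucleosomes downstream of transcription start sites of active genes, where its peaks are usually short and sharp. DDM1 is a chromatin remodeller of the SNF2 family that opens nucleosome-bound heterochromatin to DNA methyltransferases, and plants without it lose DNA methylation mainly at transposable elements. Tomato chromosomes have gene-rich euchromatin towards their ends and long blocks of gene-poor pericentromeric heterochromatin between them, and chromosome 2 has a very short arm that carries the 45S ribosomal RNA genes.

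With a single list per genotype no difference could be set against the spread between plants, so no test was made. Shares are given with 95% Wilson intervals, medians with binomial order-statistic intervals and ratios of counts with exact conditional intervals. All of them describe counting error, take each peak as an independent event, and leave out the variation between plants. The H3K9ac lists were set against the heterochromatin lists of the same genotype. Of the WT H3K9ac peaks, 0 overlapped a WT H3K9me2 peak, which allows a share of up to 0.00704%, and 4 (0.00938%) overlapped a WT H3K27me1 peak. Of the *ddm1* H3K9ac peaks, 53 (0.0693%) overlapped a *ddm1* H3K9me2 peak and 408 (0.533%) a *ddm1* H3K27me1 peak. These shares cannot tell H3K9ac from another mark that lies outside heterochromatin, so the label of the antibody was not tested. The number of reads per library was not known. The height of a peak was therefore read as the pileup of read fragments at its summit, a whole number that could be solved from the deposited fold and −log10 p for every peak of both lists. The genome-wide background level of the peak caller was 6.97 reads in WT and 7.02 reads in *ddm1*, a ratio of 1.007. At all 262 pairs of WT and *ddm1* peaks whose summits lay on the same base, the local backgrounds also stood in this ratio within 0.01%. The same held for 3941 (15.6%) of the other 25321 pairs, so that at those sites the backgrounds of the 2 lists differed by the scaling alone.

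The *ddm1* list held more but smaller peaks than the WT list. Peaks had a median width of 631 bp (625 to 637) in WT, as against 418 bp (414 to 422) in *ddm1*. The widest WT peak was 9269 bp long and the widest *ddm1* peak 5775 bp. The median summit stood at 51 reads in WT and 32 reads in *ddm1*, and the strongest summit at 272 and 215 reads. In *ddm1* 7293 peaks (9.53%) lay where the local background was at the genome-wide level, compared with 207 (0.486%) in WT. The *ddm1* list thus reached further into sites where the background did not rise above its genome-wide level.

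Every chromosome carried more H3K9ac peaks in *ddm1*. The rise was smallest on chromosome 2, at 1.28-fold, and largest on chromosome 12, at 2.49-fold. In WT the density ran from 35.1 peaks per Mb on chromosome 12 to 89.2 peaks per Mb on chromosome 2. In *ddm1* it ran from 84.7 peaks per Mb on chromosome 11 to 114 peaks per Mb on chromosome 2. The order of the chromosomes also changed. Chromosome 1, the longest, had the most peaks in both lists, with 5472 in WT and 9206 in *ddm1*. Chromosome 2 went from 4916 to 6296 peaks and was overtaken by chromosome 3, which went from 4443 to 6981. It was also overtaken by chromosomes 4 (3739 to 6557), 7 (3328 to 6385) and 8 (3354 to 6346). Chromosome 6, with 3733 peaks in WT and 5148 in *ddm1*, had the second-smallest rise, at 1.38-fold. Chromosome 12 had the fewest peaks in WT, 2473, and 6148 in *ddm1*, close to the 6246 of chromosome 9 and the 6287 of chromosome 5, which had 2906 and 2775 in WT. In *ddm1* the fewest peaks lay on chromosome 11, where 2710 in WT stood against 5045.

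The chromosomes were therefore more alike in the mutant: the highest density was 2.54 times the lowest in WT and 1.35 times the lowest in *ddm1*.

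Peaks were also narrower in *ddm1* on all 12 chromosomes. The median width differed little between chromosomes in WT, from 605.5 bp on chromosome 11 to 652 bp on chromosome 9. In *ddm1* it ran from 392 bp on chromosomes 10 and 12 to 481 bp on chromosome 2. Chromosome 12, with the largest rise in number, had the lowest width ratio (0.606), and chromosome 2, with the smallest rise, had the highest (0.765). The narrowing of the list rested on the weaker *ddm1* peaks. When only the strongest peaks of *ddm1* were kept, as many as WT had, the width ratio turned to 1.08, an alternative in which the larger list was cut to its strongest peaks by −log10 q. The weak WT peaks stayed in, so this setting compares the lists at unlike thresholds.

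**Figure D1:**
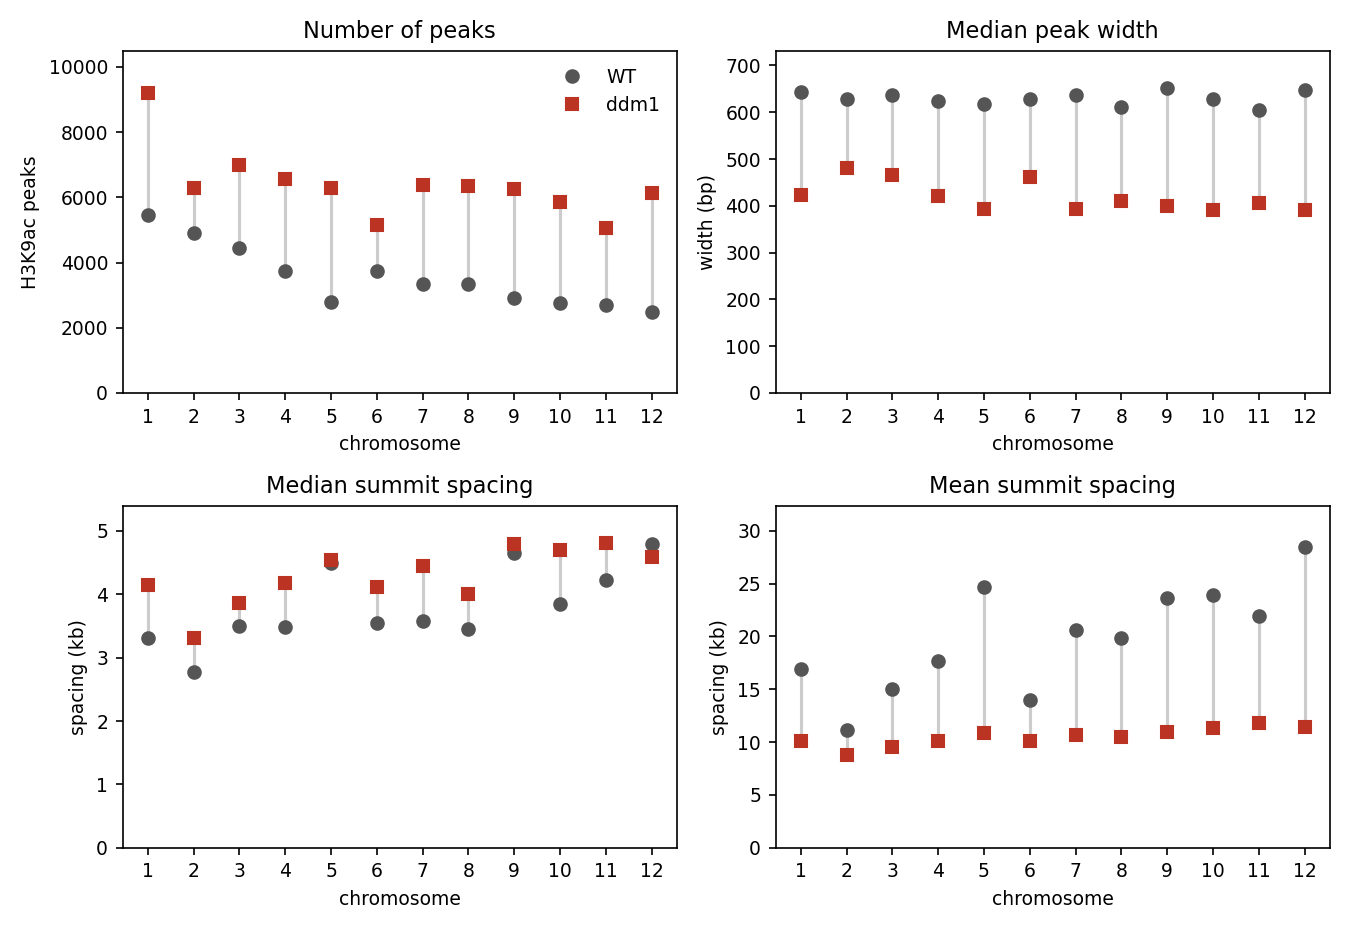
The 4 panels give for each of the 12 chromosomes the number of H3K9ac peaks, their median width in bp, and the median and mean distance between neighbouring summits in kb, with WT as grey circles and *ddm1* as red squares (1 list each, so no error bars) joined by a line. Peak number is higher and width lower in *ddm1* on every chromosome, the median spacing is longer on 11 of 12, and the mean spacing, from 11.1 to 28.5 kb in WT, falls to between 8.74 and 11.8 kb.

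Spacing was measured between neighbouring summits on a chromosome. Its distribution had 2 maxima in both genotypes. In WT the short maximum lay at 1032 to 1337 bp and the long one at 6340 to 8217 bp. In *ddm1* the short maximum lay at 796 to 1032 bp and the long one again at 6340 to 8217 bp. The WT bin of 796 to 1032 bp was nearly as full as the WT short maximum (2770 and 2799 intervals). The short maxima of the 2 lists were therefore not clearly apart. The long maximum held 2875 intervals in WT and 5282 in *ddm1*, so that it stood further above the short one (2799 and 4510 intervals) in the mutant. Intervals under 1 kb made up a similar share of both lists, 8405 of 42610 (19.7%) in WT and 16021 of 76501 (20.9%) in *ddm1*.

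The median and the mean of the spacing moved in opposite directions. The median was 3.60 kb in WT and 4.23 kb in *ddm1*, and it was longer in *ddm1* on 11 of 12 chromosomes. The exception was chromosome 12, where it went from 4.79 to 4.58 kb. The mean was 18.8 kb in WT and 10.5 kb in *ddm1*, and it was shorter on all 12 chromosomes. Over only the peaks that were matched between the lists, the ratio of the median spacings turned from above 1 to 0.877, an alternative chosen after seeing the data. The fall of the mean lay in the largest distances: the 99th percentile was 341 kb in WT and 86.5 kb in *ddm1*, while the 25th percentile was 1.23 and 1.20 kb.

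**Figure D2:**
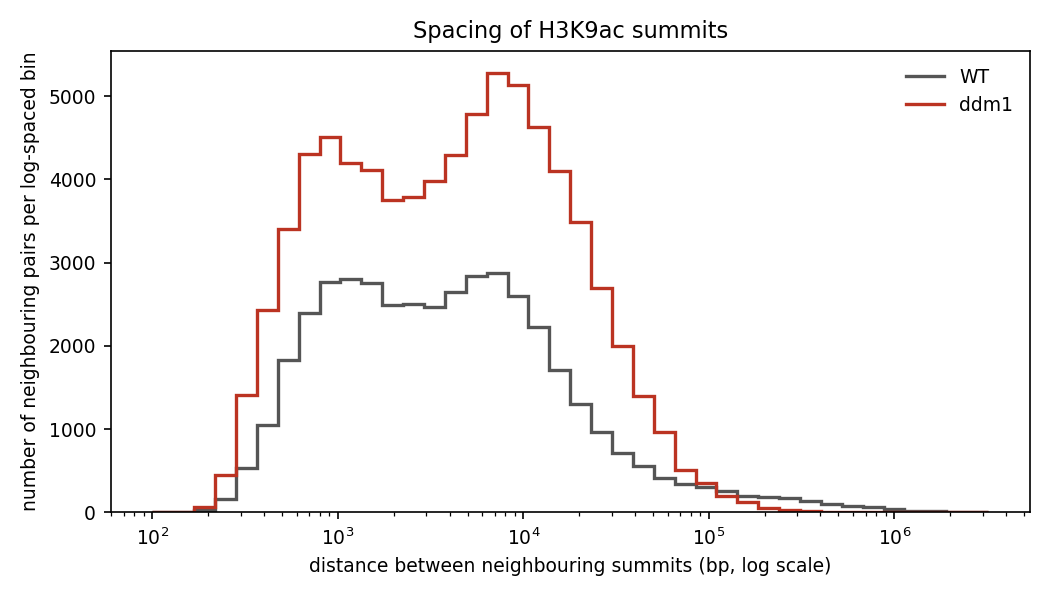
The lines count pairs of neighbouring H3K9ac summits (y axis) by the distance between them in bp (x axis, log scale, bins of equal width on that scale), grey for WT and red for *ddm1*. Both lines have a maximum near 1 kb and another at 6340 to 8217 bp, and WT has the longer tail, with 1412 distances above 100 kb compared with 540 in *ddm1*.

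Long stretches without H3K9ac were broken up in *ddm1*. WT had 1412 distances of more than 100 kb, 474 Mb in all, and *ddm1* had 540, which added up to 109 Mb. Of the 8025 windows of 100 kb along the chromosomes, 3344 (41.7%) held no WT peak and 524 (6.53%) held no *ddm1* peak. The longest stretch of a chromosome was shorter in *ddm1* on 11 of 12, and chromosome 11 was the exception, with 3046 kb in WT and 3082 kb in *ddm1*. Chromosomes 5 and 7 had the largest relative fall, from 1240 to 333 kb and from 1678 to 454 kb. In kb the fall was largest on chromosome 10, from 2196 to 802 kb. On chromosome 12 it hardly did, with 2144 kb in WT and 2070 kb in *ddm1*. Chromosomes thus differed in whether a long stretch without called H3K9ac remained.

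The 3 longest WT stretches behaved differently from each other. On chromosome 11, chr11:18087299-21132821 (M82 V1.0, as are all positions here) held 0 *ddm1* H3K9ac peaks. It carried 54 H3K9me2 peaks in WT and 146 in *ddm1*, and 62 H3K27me1 peaks in WT and 83 in *ddm1*, both marks of constitutive heterochromatin. On chromosome 8, chr8:9613296-12634108 held 8 *ddm1* H3K9ac peaks, the highest with a summit of 145 reads, and its H3K9me2 peaks went from 43 to 100. On the same chromosome 11, chr11:48086331-50885903 was filled with 134 *ddm1* H3K9ac peaks (47.9 per Mb, median width 360.5 bp). There the H3K9me2 peaks went from 39 in WT to 9 in *ddm1*, and the H3K27me3 peaks, the mark of Polycomb-dependent heterochromatin, from 0 in WT to 61 in replicate 1 and 113 in replicate 2 of *ddm1*. Replicate 2 is *ddm1* by its labels, but the name of its list gives WT, so that its values are given apart from those of replicate 1 throughout.

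The stretches without H3K9ac in the *ddm1* list itself were looked at next, a choice made after those values were seen. In *ddm1* 12 stretches of more than 1000 kb, on 8 chromosomes, covered 19.3 Mb. The *ddm1* H3K9me2 list had 492 peaks inside them, a density of 25.5 per Mb compared with 8.78 per Mb elsewhere. In WT the H3K9me2 density was 13.4 per Mb inside and 12.1 per Mb elsewhere. The excess in *ddm1* depended on the length chosen. For *ddm1* stretches over 500 kb, the *ddm1* H3K9me2 density was 19.6 per Mb inside and 8.82 per Mb elsewhere. For those over 100 kb it was 9.19 and 9.18 per Mb. H3K27me3 was almost missing from the stretches over 1000 kb in both *ddm1* replicates (0.467 and 0.882 peaks per Mb, compared with 41.5 and 59.2 elsewhere), and also in WT (0.415 and 45.6). The single stretches were not alike: that on chromosome 11 (chr11:18051155-21132939) had 147 *ddm1* H3K9me2 peaks, whereas chr4:13248971-14368150 had 0 and chr12:38357615-40427356 had 5. Whether reads could be placed uniquely in these stretches was not known.

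To follow the position along the chromosome, each chromosome was folded at its midpoint and cut into 10 bins of equal length, from bin 1 at both ends to bin 10 at the centre, 80.2 Mb per bin over all chromosomes. In WT the density fell from 171 peaks per Mb in the outermost bin to 9.74 peaks per Mb in the innermost, a 17.5-fold difference. In *ddm1* it fell from 160 to 78.3 peaks per Mb, a 2.04-fold difference, and it changed little over bins 6 to 10, of which bin 8 was the lowest at 73.4 peaks per Mb. The ratio of *ddm1* to WT grew with each bin. It was 0.935 (0.913 to 0.958) in the outermost bin, 1.02 in the next, 2.45 in bin 5 and 8.04 (7.46 to 8.67) in the innermost.

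The outermost bin had fewer peaks in *ddm1* on 11 of 12 chromosomes, although the interval of the ratio lay below 1 on only 5 of them. The lowest ratio was 0.852 on chromosome 10, and the exception was chromosome 2, at 1.32. The excess on chromosome 2 came from its first end. The first 2.75 Mb held 10 peaks in WT and 264 in *ddm1*, which were mostly weak, with a median summit of 26 reads and a median width of 326 bp. At the other end, the last 2.75 Mb of chromosome 2 held 674 peaks in WT and 641 in *ddm1*. The first end of chromosome 2 thus had 95.9 *ddm1* peaks per Mb, a density between those of bins 3 and 4 over all chromosomes.

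In the innermost bin the ratio was smallest where WT already had many peaks. On chromosome 2 the count went from 163 to 434 (2.66-fold), and on chromosome 6 from 142 to 450 (3.17-fold). On the other 10 chromosomes WT had 27 to 70 peaks there and *ddm1* 402 to 628. On chromosome 9 the count went from 27 to 475 (17.6-fold), and on chromosomes 1, 7 and 8, with 37 WT peaks each, it went to 554, 586 and 550. The *ddm1* density of this bin lay between 59.7 peaks per Mb on chromosome 1 and 89.9 peaks per Mb on chromosome 3, a 1.51-fold range, whereas the WT density had a 7.53-fold range, from 3.93 to 29.6. The midpoint of a chromosome is not its centromere. With the centre placed instead at the median position of the WT H3K27me1 and H3K9me2 peaks of each chromosome, the ratio was 9.30 in the innermost bin and 0.922 in the outermost. With the *ddm1* list cut to the WT number of peaks, the ratio was 3.62 in the innermost and 0.653 in the outermost bin. The size of the rise at the centre thus depended on how many of the weaker *ddm1* peaks were kept.

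Spacing changed less from end to centre in *ddm1* than in WT. The median distance between WT summits lengthened from 3.10 kb in the outermost bin to 15.7 kb in the innermost, and the mean from 5.82 to 103 kb. In *ddm1* the median went from 3.71 to 4.55 kb and the mean from 6.24 to 12.7 kb. At the chromosome centres the *ddm1* summits were therefore spaced nearly as closely, by the median, as at the ends.

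The *ddm1* peaks also changed in kind towards the centre. Their median width went from 599 to 345 bp from the outermost to the innermost bin, their median summit from 49 to 27 reads and their median fold from 3.96 to 3.03. WT peaks kept a median width of 656 bp at the outside and 627 bp in the innermost bin. This change followed the mix of matched and unmatched peaks. A peak is called matched when it shares at least 1 bp with a peak of the other list. In *ddm1* the matched share was 82.5% in the outermost bin, whereas in the innermost 5714 of 6279 peaks were unmatched. In WT the matched share was 71.6% in the outermost and 69.8% in the innermost bin.

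Within each class the peaks were nearly uniform from end to centre. Matched *ddm1* peaks had a median width of 672 bp and a summit of 62 reads in the outermost bin, and of 685 bp and 65 reads in the innermost. Unmatched *ddm1* peaks had a summit of 29 and 26 reads, and their width went the other way, from 253 bp outside to 324 bp inside. Their density rose towards the centre, from 28.0 to 71.3 peaks per Mb, whereas that of the unmatched WT peaks fell from 48.5 to 2.94 peaks per Mb. Unmatched *ddm1* peaks thus had a profile opposite to every other class of H3K9ac peak.

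**Figure D3:**
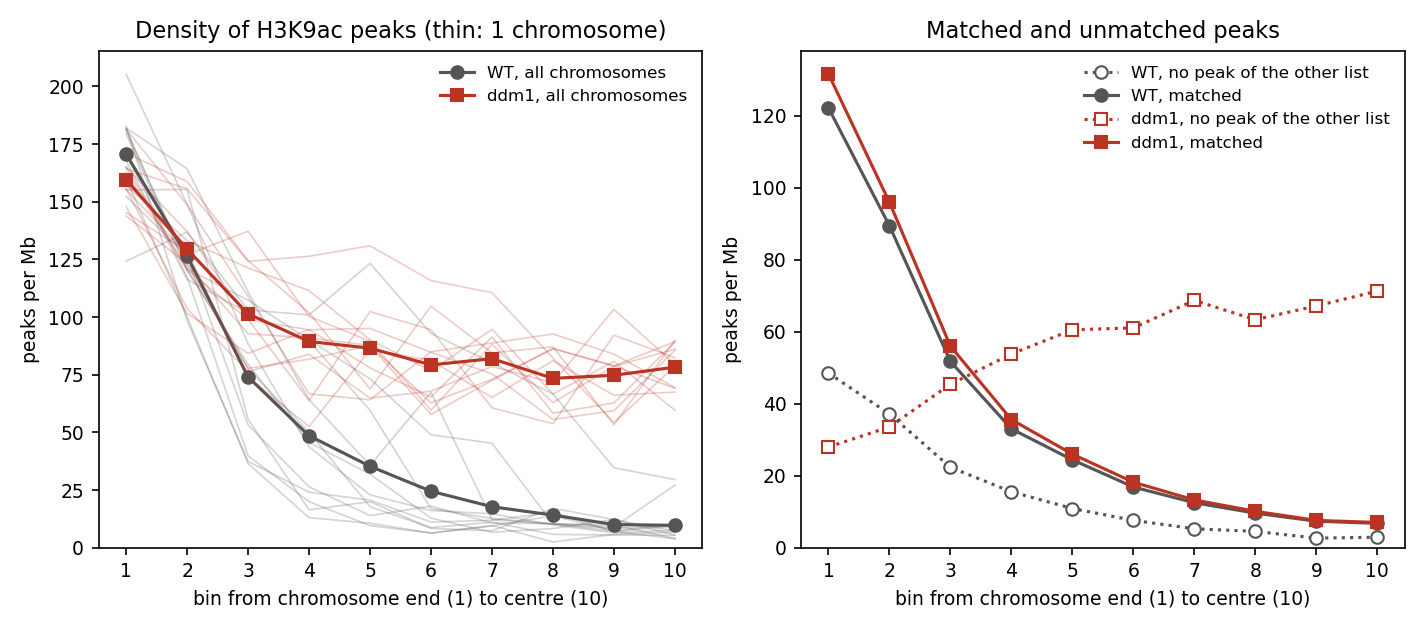
Both panels plot H3K9ac peaks per Mb against the bin from the chromosome end (1) to the centre (10). On the left, thick lines are all chromosomes and thin lines the 12 single chromosomes, grey for WT and red for *ddm1*: WT falls from 171 to 9.74 and *ddm1* from 160 to 78.3. On the right, filled markers are peaks matched in the other list and open markers unmatched ones: only the unmatched *ddm1* peaks rise towards the centre, from 28.0 to 71.3.

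Of the WT peaks, 29984 (70.3%, interval 69.9 to 70.8) were matched, with little difference between chromosomes, from 69.0% on chromosome 6 to 72.2% on chromosome 12. Of the *ddm1* peaks, 32184 (42.1%) were matched, from 30.2% on chromosome 12 to 60.1% on chromosome 2. Matching rose with the width of the peak. In WT 31.6% of the peaks under 300 bp and 98.6% of those from 2000 bp upwards were matched. In *ddm1* the shares were 21.7% and 78.5%, so that even among the widest *ddm1* peaks some had no WT counterpart. The 2 kinds of unmatched peak lay at different distances from the other list. An unmatched WT peak was a median of 1.45 kb from the nearest *ddm1* peak, and 5192 of 12638 (41.1%) were within 1 kb. An unmatched *ddm1* peak was a median of 46.8 kb from the nearest WT peak, only 2812 (6.34%) were within 1 kb, and 13396 (30.2%) were more than 100 kb away, compared with 2 of the unmatched WT peaks.

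For the change at matched sites, 25583 pairs were used in which the WT and the *ddm1* peak overlapped only each other. Most of these sites were lower and slightly narrower in *ddm1*. The median fold over background went from 6.45 to 4.96, with a median log2 ratio of −0.34, and the median summit from 88 to 68 reads, with a median log2 ratio of −0.33. The summit was lower in *ddm1* in 20092 pairs (78.5%). The local background at the pairs had a median log2 ratio of 0.010, which is the scaling between the 2 lists. Where summits shared a base the backgrounds differed by this scaling alone. The median could therefore not show whether the background differed between the genotypes. The median width went from 775 to 689 bp, a median log2 ratio of −0.13.

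A change of at least 1.5-fold served to call a pair. By fold, 6855 pairs fell and 798 rose, where the shares of all 25583 pairs were 26.8% and 3.12%. By summit pileup, 6342 (24.8%) fell and 781 (3.05%) rose. By width, 4473 (17.5%) fell and 1593 (6.23%) rose. These calls compare the 2 lists and not the genotypes, since no replicate error stood behind them.

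The shift was similar along the genome. The median log2 ratio of the summit lay between −0.39 on chromosome 10 and −0.30 on chromosome 2, and that of the width between −0.15 on chromosome 10 and −0.11 on chromosome 12. From the outermost to the innermost bin, that of the summit went from −0.36 to −0.29. The peak number thus changed 8.04-fold in the innermost bin while the matched peaks of that bin fell to nearly the same degree as elsewhere.

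The change of a pair depended on its height in WT. Over the 10% of the pairs with the highest WT summits (165 to 272 reads), the median summit was 185 reads in WT and 133 in *ddm1*, a log2 ratio of −0.51. Over the weakest 10% (16 to 31 reads) the log2 ratio was 0.14. Part of this order comes from sorting by 1 of the 2 values compared: sorted by the mean of both summits, the log2 ratio ran from −0.064 in the weakest 10% to −0.42 in the strongest. Sorted by WT width, the narrowest 10% (150 to 299 bp) had a log2 width ratio of 0.35 and the widest (1389 to 6223 bp) of −0.18. This sort also used 1 of the 2 values compared, and a sort by the mean width is not given here. Whether narrow peaks widened in *ddm1* can therefore not be told apart from the effect of sorting.

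**Figure D4:**
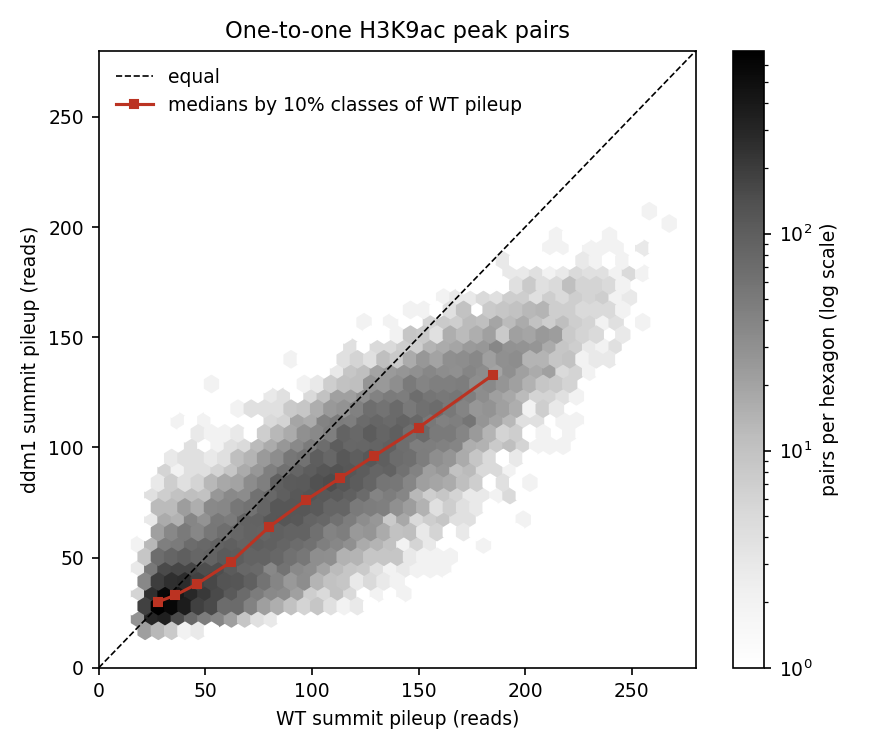
Each hexagon is shaded by the number of one-to-one pairs (log scale) with a given summit pileup in WT (x axis, reads) and in *ddm1* (y axis, reads), over 25583 pairs. The dashed line marks equal values and the red squares the medians over successive 10% classes of WT pileup, which lie close to the line for the weakest pairs and reach 185 reads in WT and 133 in *ddm1* for the strongest.

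Height and width changed together. In the 4529 pairs whose summits were within 10% of each other, the median width went from 647 bp in WT to 622 bp in *ddm1*. In the 6342 pairs that fell at least 1.5-fold in summit pileup it went from 922 to 666 bp, and in the 781 pairs that rose it went from 358 to 744 bp. Of the 6342 pairs called lower in summit, 2299 were also called narrower and 14 wider. Of the 781 called higher, 488 were called wider and 3 narrower. Over all 25583 pairs, 17.5% were called narrower and 6.23% wider. Whether the shape of the peaks changed as well was not tested.

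The place of the peaks hardly moved. The summits of a pair lay a median of 46 bp apart, with 73.3% within 100 bp, and the median signed shift was 0 bp. The WT summit lay inside the *ddm1* peak in 94.9% of the pairs. The left edge of the *ddm1* peak was a median of 24 bp further right than in WT, and the right edge a median of 24 bp further left. Peaks were not oriented by the direction of a gene, so these medians cannot show whether single peaks lost width evenly on both sides. Across pairs, WT and *ddm1* values had a Pearson correlation of 0.865 for the log2 summit pileup and 0.727 for the log2 width (n = 25583 pairs from 1 list per genotype).

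Named pairs were those with the largest changes among 17164 pairs with a −log10 q of at least 10 in both lists. The largest rise in fold was at chr5:6390662-6391091, from 3.54 to 12.4, where the summit went from 53 to 128 reads and the width from 430 to 716 bp. The fold at chr1:3906142-3906552 went from 3.90 to 11.4 and that at chr4:57625562-57625959 from 3.66 to 10.4. The last of these also lay in an H3K27me3 peak of WT and of both *ddm1* replicates. The largest fall in fold was at chr2:35135318-35136189, from 21.5 to 4.32 (223 to 53 reads). It was followed by chr5:5594911-5595824 (16.2 to 3.83) and chr6:50452946-50453716 (14.1 to 3.42), which lay in an H3K27me3 peak of WT and of replicate 1 of *ddm1*.

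The largest rise in width was at chr11:1261754-1262011, where 258 bp in WT stood against 1682 bp in *ddm1*. The next were chr2:36098310-36098632 (323 to 1275 bp) and chr1:2077908-2078147 (240 to 935 bp). The largest fall in width was at chr6:41687659-41688928, from 1270 to 187 bp. At chr2:36294126-36296128 the width went from 2003 to 336 bp within H3K27me3 peaks of WT and of both *ddm1* replicates, and at chr5:10491073-10492273 from 1201 to 211 bp. Genes at these sites were not looked up, as no annotation of this assembly was used here.

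In the lists as deposited, splitting of peaks was more frequent than merging. A WT peak was called split when at least 2 *ddm1* peaks overlapped it, and a *ddm1* peak was called merging when it overlapped at least 2 WT peaks. Of the matched WT peaks, 2692 (8.98%, interval 8.66 to 9.31) were split. Of the matched *ddm1* peaks, 945 (2.94%, interval 2.76 to 3.13) were merging. The split share was highest on chromosome 2 (10.5%) and lowest on chromosome 12 (6.11%), and the merging share ran from 2.16% on chromosome 6 to 3.75% on chromosome 2. There were 2.85 split peaks per merging peak over the genome, and more split than merging peaks on every chromosome, from 2.06 on chromosome 12 to 3.72 on chromosome 6. The difference was smaller between lists of equal size: with the *ddm1* list cut to the WT number of peaks, 4.28% of matched WT peaks were split and 3.17% of matched *ddm1* peaks merging. That cut took weak peaks, and so weak pieces, from the *ddm1* list only.

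Most split peaks fell into 2 pieces (2272, 84.4%), and 324 fell into 3. The split WT peaks were long, with a median width of 1505.5 bp. The gap between neighbouring pieces had a median of 162 bp, and the shortest gap was 77 bp. The pieces covered a median of 73.3% of the WT peak, the largest piece alone covered 67.7%, and the strongest piece held the WT summit in 75.9% of cases. In most split peaks the strongest piece thus kept the WT summit. The largest piece was measured apart and need not be the strongest. The merging *ddm1* peaks had a median width of 1158 bp and a median summit of 54 reads, lower than the 85 reads of the split WT peaks, and bridged WT gaps of a median of 136 bp.

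The share of split peaks rose with width. Among matched WT peaks of at least 150 and under 300 bp it was 0.512%, among those of 1000 to under 1500 bp 12.6%, and from 2000 bp upwards 52.2% (49.7 to 54.7). Among *ddm1* peaks of the same widths the merging share was 0.668%, 4.96% and 21.3% (18.7 to 24.3). The shares were close in the narrowest class, and from 500 bp upwards the split share was the higher in every class. Along the chromosome, the split share went from 9.21% in the outermost bin to 4.77% in the innermost.

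**Figure D5:**
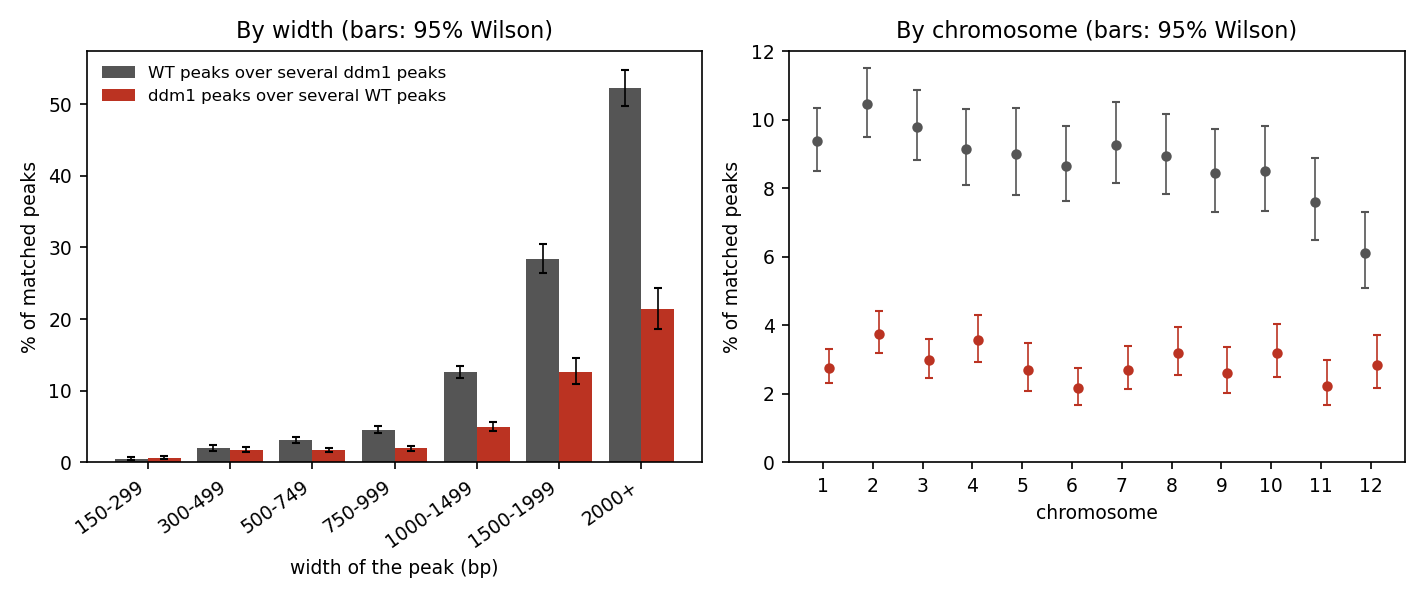
On the left, bars give the share of matched peaks (%) that overlap several peaks of the other list, by the width of the peak in bp, grey for WT peaks split in *ddm1* and red for *ddm1* peaks merging WT peaks. On the right, points give the same shares for each chromosome. Error bars are 95% Wilson intervals. The split share reaches 52.2% from 2000 bp upwards, where the merging share is 21.3%, and it is the higher on each chromosome.

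The peaks split into most pieces lay on 3 chromosomes. The widest WT peak of all, chr5:3772009-3781277 (9269 bp, summit of 114 reads), was covered by 7 *ddm1* peaks with summits of 25 to 63 reads. Together they spanned 8435 bp of it. The peak at chr8:58724230-58729769 (5540 bp, 200 reads) was also covered by 7 *ddm1* peaks (25 to 153 reads), and that at chr3:64224016-64232017 (8002 bp, 228 reads) by 6 (22 to 150 reads). In all 3 peaks the highest piece stayed below the WT summit.

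The *ddm1* peak that merged most WT peaks was chr8:65431560-65435596 (4037 bp, summit of 105 reads), which lay over 6 WT peaks with summits of 22 to 63 reads. It was followed by chr10:60134998-60137636 (2639 bp, 57 reads) and chr6:35471033-35472697 (1665 bp, 63 reads), each over 5 WT peaks. At different sites, wide peaks of either list were thus called as several peaks in the other list. Signal between these peaks that lay below the threshold of the peak caller is not seen. Whether an H3K9ac domain broke up or formed at these sites was therefore not tested.

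H3K27me3 in WT, a readout that the choice of lists did not use, differed between these classes of peak. Of all WT H3K9ac peaks, 18.6% overlapped a WT H3K27me3 peak. The share was 15.1% for WT peaks of one-to-one pairs, 23.8% for split peaks and 24.4% for unmatched WT peaks. It was as high for the merging *ddm1* peaks, 26.9% (24.1 to 29.8), compared with 14.7% for the *ddm1* peaks of one-to-one pairs. The higher share was thus not particular to splitting. Among these classes the unmatched *ddm1* peaks had the lowest share, 4.63% (4.44 to 4.83) of 44329, compared with 9.15% of all *ddm1* H3K9ac peaks. The split peaks were wider than the others, and so they were also compared at a width of 1000 to 1500 bp, where 23.1% (20.1 to 26.3) of the split and 12.2% (11.3 to 13.2) of the one-to-one peaks overlapped H3K27me3. These sets were matched in width but not in height: the median summit was 76 reads in the split and 121 reads in the one-to-one peaks, and the part of this in the difference was not tested.

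Pairs that rose in *ddm1* lay in WT H3K27me3 more often than the others. Of the 781 pairs with a summit at least 1.5-fold higher, 296 (37.9%, interval 34.6 to 41.4) overlapped a WT H3K27me3 peak, compared with 15.6% of the pairs that fell and 13.9% of those between. Weak WT peaks overlapped H3K27me3 more often in general. Among pairs with a WT summit under 30 reads, the share was 39.1% (33.8 to 44.8) for those that rose and 25.6% (23.5 to 27.8) for those between. From 30 to 40 reads it was 37.5% for those that rose and 23.0% for those between, and from 40 to 60 reads 36.5% and 25.3%. Pairs that fell were close to those between from 40 to 60 reads (25.8%). At 60 reads or more they had 13.5% (12.6 to 14.5), compared with 7.69% (7.22 to 8.19). By width, without regard to height, the share was 29.6% for pairs called wider, 24.4% for those called narrower and 11.8% for those between. The excess was thus not limited to pairs that rose. The H3K27me3 lists of *ddm1* overlapped fewer of the rising pairs, 18.7% in replicate 1 and 22.9% in replicate 2, but this fall was general: over all WT H3K9ac peaks the shares were 7.78% and 9.47%, and over the pairs that fell 7.14% and 7.93%.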

How the data were processed

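H3K9ac ChIP-seq peak lists of WT and *ddm1* leaves were used, 1 list per genotype. According to their methods, the authors trimmed reads, aligned them to the M82 V1.0 assembly (1 mismatch) and ran the MACS peak caller with a q-value limit of 0.05 and reads extended to 150 bp; the submitters' processing notes name Trimmomatic 0.38, Bowtie2 2.3.5, SAMtools 1.9 and MACS3. Whether replicates were pooled before calling, and which control was used, is not given in the sources used here. At all 262 pairs with summits on the same base, the local backgrounds differed by the scaling between the lists alone. The backgrounds at those sites therefore cannot be taken as separate measurements of the 2 genotypes. Each deposited peak has a start, an end and a summit offset in bp, a fold enrichment at the summit (a ratio to the local background), −log10 p and −log10 q values, and a whole-number score that the authors' peak caller derived from q. The lists give no read totals, so the number of reads per library is unknown, and the pileup is not a library total. The genome-wide background levels of the peak caller were nearly equal, at 6.97 reads in WT and 7.02 reads in *ddm1*.

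Groups were taken from the labels. Pileup and local background were solved per peak from fold and −log10 p, with a pseudocount of 1 and a whole pileup within 0.001 in −log10 p; of 5000 random value pairs, 0.38% came out whole by accident. Peaks were assigned to bins by their midpoint, and the last peak end over all lists served as the chromosome end. Intervals have a level of 95%, and a count of 0 was given the limit of 3 counts. Regions named were those with the largest number of pieces or the largest change in fold or width, 3 each. Peaks of the H3K27me3, H3K9me2 and H3K27me1 lists were used by position only. The members, lists and rules were chosen with earlier results of these data known. Alternatives were a stricter q, equal list sizes, a minimum width, joining of close peaks, another overlap rule, another centre and fewer bins. Scripts ran in Python 3.11.15 with numpy 2.4.6, pandas 2.3.3 and SciPy 1.17.1, and matching, splitting and pileup solving were tested on simulated peaks.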

Additional observations from a re-analysis of the deposited data

Results flagged for a closer look

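Peaks outside the 12 numbered chromosomes entered no comparison. The WT H3K9ac list held 5 such peaks on 2 sequences, and the *ddm1* list held 38 on 13 sequences, of which 3 lay on the chloroplast sequence. They stand out as signal in data that the comparisons did not use.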

How the results depend on the processing

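No paired analysis was possible because each genotype had 1 H3K9ac list, and no replicate could be left out. With the *ddm1* list cut to its strongest peaks at the size of the WT list, the width ratio turned to 1.08, the ratio of median spacings was 2.41 and the density ratio of the innermost bin 3.62. In that setting 58.0% of WT peaks were matched, the median log2 ratios of the pairs were −0.34 for fold, −0.34 for summit pileup and −0.12 for width, and 4.28% of matched WT peaks were split and 3.17% of matched *ddm1* peaks merging. With peaks of at least 300 bp, the width ratio was 0.826, the spacing ratio 1.32, the matched share 74.7%, the log2 ratios −0.37 for fold and −0.36 for summit, the split share 5.04% and the merging share 1.48%. With peaks closer than 500 bp joined, these values were 0.755, 1.09, 77.8%, −0.36, −0.35, 5.42% and 1.65%. With an overlap of 50% of the shorter peak, 69.2% were matched, 7.95% split and 1.97% merging. Of the alternatives chosen after seeing the data, pairs with both summits at 60 reads or more had log2 ratios of −0.37 for fold, −0.36 for summit and −0.093 for width, and the spacing ratio over matched peaks was 0.877. The cause of these shifts was not tested. Ratios of peak number and density were taken as stable within 1.5 times. Under that rule the outermost ratio was 0.653 with equal list sizes and 0.975 (0.948 to 1.003) with close peaks joined, where its interval reached 1, and the innermost ratio was 5.87 with peaks of at least 300 bp. The other values were taken as stable within the interval of the value in the report, which all values at a q of 0.01 were. Splitting and width rest on a threshold, and signal below it is not seen.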
